A study of Mus musculus with 10 samples.

Results

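The distal end of mouse chromosome 2 carries a dense array of zinc finger genes and their pseudogenes, and RNA of this array was measured in the left ventricle of mice with and without an Nrf2 transgene. The members were the rows of the deposited count table that start between 175 and 178 megabases on chromosome 2 (GRCm38) and whose counts over the 10 libraries sum to at least 20. Of 64 rows in that window 47 met the minimum, out of 21222 rows in the whole table. By the GENCODE annotation they were 32 protein-coding genes, 9 unprocessed pseudogenes (copies left by gene duplication) and 6 processed pseudogenes (copies of a spliced messenger RNA), with 22 on the plus and 25 on the minus strand between positions 175010241 and 177957297. The members were chosen by their position and total count, and that count is given as a description only. Zfp972, with 20 counts, lay just inside the minimum, and Gm14404, with 11 counts, lay just outside it, followed by Gm14408 and Gm14413 with 10 counts each.

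As background, most genes of such arrays encode KRAB zinc finger proteins, which read DNA with a row of zinc fingers and, through the KRAB domain, recruit the corepressor Trim28 (also called KAP1) and the histone methyltransferase Setdb1 to form silent chromatin, much of it on transposable elements. The arrays grow by tandem duplication, so neighbouring genes are near copies of each other and differ mainly in number and sequence of their fingers. In the reading frames of the reference transcripts, the longest frame held the Cys-Cys-His-His zinc finger pattern at least 3 times in 28 of the 32 protein-coding members, with a median of 12 fingers among them and a highest value of 25 in Gm14295. The KRAB domain itself was not searched for.

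The hearts came from male C57BL/6J mice aged 6 months, all sampled from the left ventricle. The groups were 4 non-transgenic mice (NTG), 3 mice labelled CaNrf2-Low (TGL) and 3 mice labelled CaNrf2-High (TGH), where CaNrf2 is a constitutively active form of Nrf2, the transcription factor of antioxidant and detoxification genes that Nfe2l2 encodes; TG stands for TGL and TGH together. The labels do not name the promoter of the transgene, the founders of the lines or whether the controls were littermates, so the amount of transgene and the identity of the line cannot be told apart. They do not say in what way the libraries of a group are separate beyond their titles, so p-values measure the spread between these libraries.

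Counts per library totalled 7076319 to 10896535, and all members together held 0.0413% of them. Levels are given as CPM, counts scaled to a library size adjusted by TMM (trimmed mean of M values), with library values in the order of the replicate numbers, and a count of 0 allows up to 3 counts, which is 0.259 to 0.436 CPM depending on the library and covers counting error only. Nfe2l2 itself stood at 130 ± 32.6 CPM (SD, n = 4) in NTG, 155 ± 26.8 (SD, n = 3) in TGL and 226 ± 38.9 (SD, n = 3) in TGH. It was higher in TGH than in NTG (log2 fold change 0.80 ± 0.19 SE, edgeR adjusted p = 0.0078) and did not pass the test in TGL (0.26 ± 0.19, edgeR adjusted p = 0.456). As a check of the labelled tissue, the cardiomyocyte marker Myh6 averaged 20863, 18596 and 11616 CPM across NTG, TGL and TGH. The ventricular marker Myl2 averaged 10963, 10600 and 7952 CPM in the same groups. Both were lower in TGH than in NTG (log2 fold changes -0.84 ± 0.16 and -0.46 ± 0.08, edgeR adjusted p = 0.00207 and 0.00108). The libraries numbered 2 stood apart in every group: the chi-square per degree of freedom between libraries of a group was 10.3 to 18.0 in the 7 pairs with such a library and 2.91 to 6.96 in the other 5 pairs. With all 3 left out, an alternative chosen after seeing the data, the members called numbered 32 in place of 33 in TGH against NTG, 7 in place of 5 in TGL against NTG and 24 in place of 25 in TGH against TGL, and the sum of the members was 1.86-fold higher in TGH and 1.11-fold higher in TGL than in NTG.

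Sequence copies run through the start sites of these genes as well as through their exons. RefSeq promoter sequences (GRCm38.p6) were matched by symbol for 22 members, of which 21 lay within 200 bases of the start in the deposited table. The 250 bases upstream are shown for Gm2026, Gm14326 and Zfp970. Gm2026 was chosen because it was among the members that rose in both lines. Gm14326 was chosen as the most distal member of the window, and Zfp970 for the most counts and the smallest called rise. Capitals mark CCAAT and its reverse complement ATTGG. They lie at chr2:175965105-175965354 on the plus strand for Gm2026, at chr2:177957289-177957538 on the minus strand for Gm14326 and at chr2:177464492-177464741 on the plus strand for Zfp970.
Gm2026: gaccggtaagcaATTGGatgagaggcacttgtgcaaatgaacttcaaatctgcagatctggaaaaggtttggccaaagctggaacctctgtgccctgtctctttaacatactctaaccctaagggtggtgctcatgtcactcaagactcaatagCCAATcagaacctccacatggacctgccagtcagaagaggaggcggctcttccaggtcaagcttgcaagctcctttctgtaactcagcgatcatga
Gm14326: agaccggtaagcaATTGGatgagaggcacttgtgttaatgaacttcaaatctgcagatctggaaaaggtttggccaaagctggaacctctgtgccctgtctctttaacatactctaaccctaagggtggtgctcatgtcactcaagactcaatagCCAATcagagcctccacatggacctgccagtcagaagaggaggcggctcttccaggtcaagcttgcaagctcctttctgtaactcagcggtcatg
Zfp970: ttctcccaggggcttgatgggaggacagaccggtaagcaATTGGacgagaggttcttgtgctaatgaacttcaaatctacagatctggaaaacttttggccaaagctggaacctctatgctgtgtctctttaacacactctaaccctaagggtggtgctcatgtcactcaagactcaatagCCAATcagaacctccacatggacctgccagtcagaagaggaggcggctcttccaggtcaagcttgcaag

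These 3 upstream sequences are variants of 1 template. Against Gm2026, the aligned part was 98.4% identical in Gm14326 and 95.1% in Zfp970, and 100% in Gm4631, Gm4724 and Gm14308. In all, 19 of the 22 promoters, Gm2026 included, matched Gm2026 at 90% identity or more over at least 100 bases. The exceptions were Zfp972 (79.8%), Gm14393 (74.6%) and Gm14444, whose RefSeq start is 6488 bases from the start in the table. The stretch AGCCAATCA, picked after these sequences were seen, stood in 20 of the 22, while 2.17% of all 32851 promoters in the RefSeq table held it on either strand. CCAAT or ATTGG, the shorter letters inside it, stood in 21 of the 22 against 33.8% of all promoters. The letters TGACNNNGC, the core of the antioxidant response element to which Nrf2 binds, were found on neither strand in any of the 22, against 10.2% of all promoters; this says only that the letters are not in these windows.

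The copies also share the transcript sequence from which counts are made, which limits what the count of a single member means. For each member the percentage of its 50-base transcript words that also occur in another annotated gene was computed from GENCODE transcripts. The median over members was 85.4%, 39 of 47 members were over 50%, and 6 were at 100%. At one end, all words of Gm14440 occur in Gm14288 and 97.0% of the words of Gm14288 occur in Gm14440. At the other, Gm14443 shared 14.0% and Gm14412 27.8%. How reads that match several copies were assigned is not given in the sources used here. A change of 1 member and a change of its copies therefore cannot be told apart where sharing is high. Sums over copies are given beside the single values, but they cover members only. Words also occur in genes that are no members, from 10.4% of those of Gm14443 to 89.6% in Gm2026 and 92.5% in Gm4724. The sums do not remove that part of the sharing. Counting is not stated to use strand, so 3 overlapping pairs on opposite strands (Gm14393 with Gm14439, Gm14401 with Gm14407 and Gm14327 with Zfp972) and the pair Zfp973 with Gm14305 on the same strand may share reads for that reason too.

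Summed over its members, the array stood higher in the high line. The summed level of the 47 members was 300, 332, 301 and 288 CPM in NTG, 331, 350 and 382 in TGL and at 566, 576 and 596 CPM in TGH. The TGH libraries lay far above all others, and the highest NTG library reached just past the lowest TGL library. The group means were 305 ± 18.8 (SD, n = 4), 354 ± 25.4 (SD, n = 3) and 579 ± 15.4 (SD, n = 3), so the sum was 1.90-fold higher in TGH and 1.16-fold higher in TGL than in NTG. A different amount of RNA per cell and a different number of cells of a type cannot be told apart in RNA of whole tissue, for these values and all that follow.

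The rise was largest in the protein-coding members. Their sum was 199, 216, 198 and 186 CPM in NTG, 243, 244 and 273 in TGL and at 448, 443 and 460 CPM in TGH, with no overlap between any of the groups. It was 2.25-fold higher in TGH and 1.27-fold higher in TGL than in NTG. The 9 unprocessed pseudogenes summed to 40.3 ± 5.34 CPM (SD, n = 4) in NTG, 39.4 ± 7.05 (SD, n = 3) in TGL and 61.0 ± 1.93 (SD, n = 3) in TGH, which was 1.51-fold higher in TGH and 0.977 times the NTG level in TGL.

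**Figure D1:**
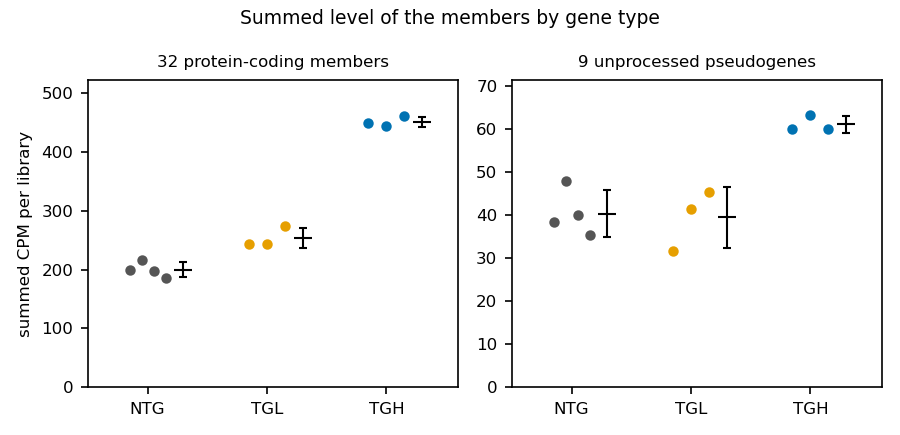
Summed CPM per library (vertical axes, starting at 0) for the protein-coding members and the unprocessed pseudogenes in NTG, TGL and TGH; points are libraries, and bars show the mean and SD. The protein-coding sum separates all groups (186 to 216, 243 to 273 and 443 to 460 CPM), and the unprocessed pseudogenes are higher in TGH.

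Of the 47 members 43 passed the low-count filter and were tested; Gm14411, Gm14406, Gm14429 and Zfp972, with 75, 68, 24 and 20 counts, were not. In TGH against NTG 33 of the 43 were higher and 0 lower (edgeR quasi-likelihood F test, adjusted p under 0.05), while 16.0% of all 14511 genes tested were called higher and 16.4% lower. Their median log2 fold change was 1.21, against -0.02 over all genes tested. The calls were 29 of 30 tested protein-coding genes, 4 of 7 unprocessed and 0 of 6 processed pseudogenes (also 0 at an unadjusted p under 0.05). In 34 of the 43 tested members every TGH library lay above every NTG library, which held for 19.3% of all genes tested. Gm14444, Gm14443, Gm14401 and Gm14409 passed the filter through their TGH libraries alone, 3 of them were called, and 30 of the other 39 tested members were called. The filter favoured a separation of TGH in these genes, and Gm14444, Gm14443 and Gm14401 are among the 34. At an unadjusted p under 0.05 the number of lower members was also 0 in edgeR, and DESeq2 called 32 higher and 0 lower.

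**Figure D2:**
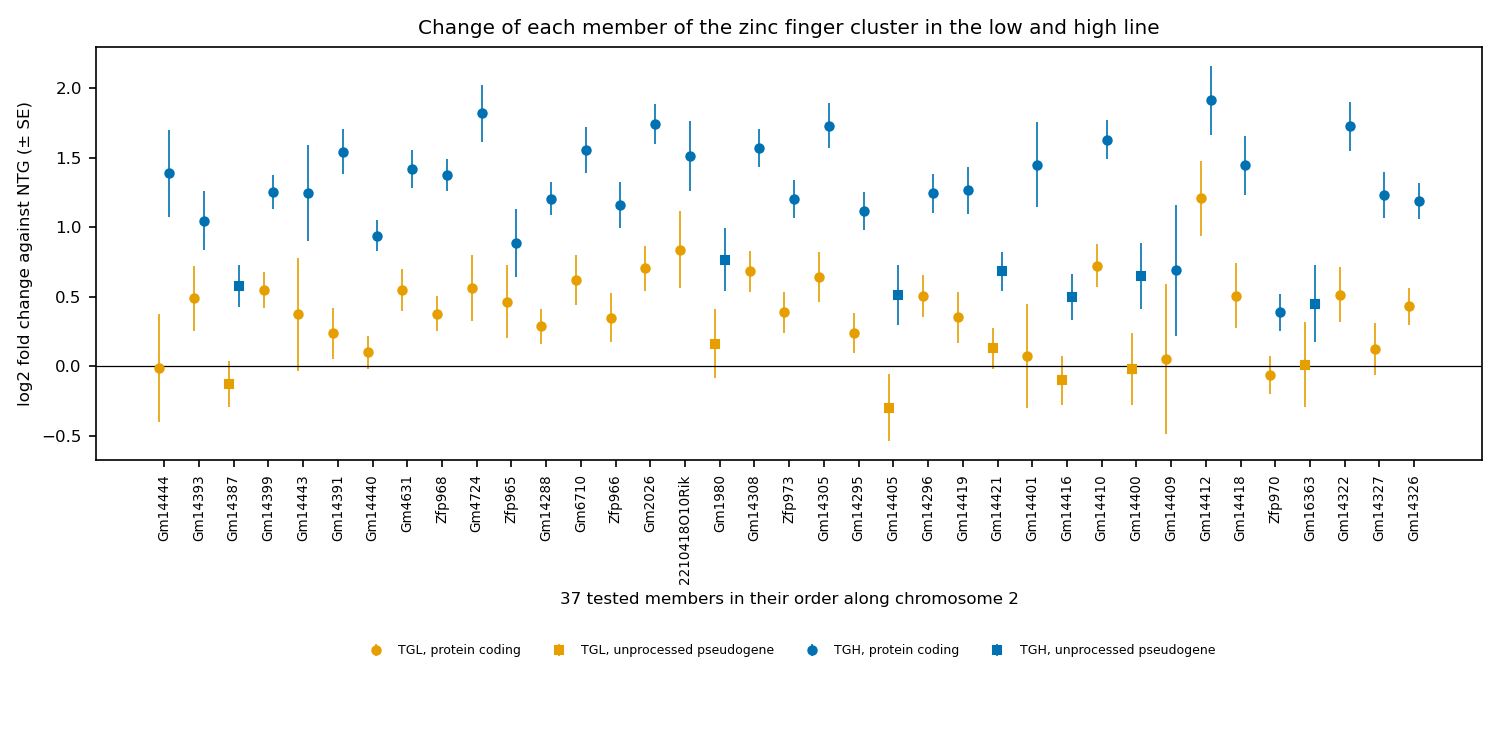
Log2 fold change against NTG with its SE (vertical axis) for the 37 tested members other than processed pseudogenes in their order along chromosome 2, in TGL (orange) and TGH (blue), with the symbol shape giving the kind of gene. In TGH the members shown lie between 0.39 and 1.91 over the whole array.

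Members were grouped where at least 50% of the words of one occur in another, which gave 10 families holding 36 members and 11 single members. In 9 of the 10 families, all but one of processed pseudogenes, the summed TGH libraries all lay above the NTG libraries, and in 6 the TGL libraries did. Among all single genes tested the shares were 19.3% and 10.8%. A sum of copies that share reads is not directly comparable with a single gene. Roles of single proteins of this array in the heart are not described here, and members are named by their place and copies.

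The largest family was 8 genes of 9 to 16 fingers: Gm14391, Gm4631, Gm4724, Gm6710, Gm2026, Gm14308, Gm14305 and Gm14410. Together they stood at 34.5, 36.8, 37.6 and 35.9 CPM in NTG, 57.8, 54.9 and 52.0 in TGL and at 105, 103 and 125 CPM in TGH. No groups overlapped, and the sum was 3.07-fold higher in TGH and 1.52-fold higher in TGL than in NTG. All 8 members rose in TGH.

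Gm2026 (ENSMUSG00000078886, position 175965331 to 175980303, plus strand, 13 fingers) stood at 5.48, 5.49, 4.18 and 4.80 CPM in NTG, 9.25, 8.16 and 6.97 in TGL and at 15.1, 15.9 and 19.2 CPM in TGH. All 3 groups were separate. Its log2 fold change was 1.74 ± 0.15 SE in TGH (edgeR adjusted p = 4.99e-06) and 0.70 ± 0.16 in TGL (edgeR adjusted p = 0.0248). Gm14308 (ENSMUSG00000078880, 176613364 to 176636344, minus strand), with the same finger number and the same upstream sequence, stood at 4.94, 4.97, 5.01 and 4.80 CPM in NTG, 7.59, 7.07 and 9.15 in TGL and at 14.6, 12.8 and 16.6 CPM in TGH. Its control libraries lay closer together than those of any other member of the family, and its groups were again separate. The log2 fold change of Gm14308 was 1.57 ± 0.14 in TGH (edgeR adjusted p = 6.36e-06) and 0.68 ± 0.15 in TGL (edgeR adjusted p = 0.0189). Gm14410 (ENSMUSG00000078870, 177183453 to 177206421, minus strand, 9 fingers) stood at 4.01, 4.04, 3.94 and 5.26 CPM in NTG, 7.59, 6.53 and 7.26 in TGL and at 13.6, 12.2 and 14.5 CPM in TGH. It lay more than a megabase from Gm2026 and rose by 1.63 ± 0.14 in TGH (edgeR adjusted p = 6.09e-06) and 0.72 ± 0.15 in TGL (edgeR adjusted p = 0.017). Of the words of these 3 genes 98.4%, 98.1% and 86.7% occur in other genes.

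The other 5 of the family had separate TGH and NTG libraries as well. Gm4724, the family member with the fewest counts, stood at 1.60, 1.97, 2.03 and 2.3998 CPM in NTG, 3.17, 3.26 and 2.47 in TGL and at 6.20, 6.48 and 8.74 CPM in TGH, a rise of 1.82 ± 0.21 in TGH. Gm14305 stood at 3.47, 4.76, 6.21 and 5.37 CPM in NTG, 8.28, 7.34 and 7.70 in TGL and at 15.6, 15.4 and 18.8 CPM in TGH, a rise of 1.73 ± 0.16. Gm6710 stood at 4.27, 4.24, 5.01 and 4.23 CPM in NTG, 7.87, 6.93 and 5.66 in TGL and at 10.5, 13.5 and 15.2 CPM in TGH, a rise of 1.56 ± 0.16. In these 3 genes the TGL libraries lay between the other groups without overlap, but TGL against NTG did not pass the test (edgeR adjusted p = 0.187, 0.0598 and 0.0664).

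Of this family, Gm14391 and Gm4631 have the smallest shares of words found in any other gene, 35.8% and 43.1%. Gm14391 (ENSMUSG00000078903, 175191065 to 175206917, minus strand, 16 fingers) stood at 4.81, 4.66, 5.61 and 3.43 CPM in NTG, 6.21, 5.17 and 4.94 in TGL and at 12.98, 12.5 and 15.0 CPM in TGH. TGL overlapped NTG, and the rise in TGH was 1.54 ± 0.16 (edgeR adjusted p = 2.97e-05). Gm4631 (ENSMUSG00000078899, 175321955 to 175338197, minus strand, 13 fingers) stood at 5.88, 6.73, 5.61 and 5.5996 CPM in NTG, 7.87, 10.5 and 7.84 in TGL and at 16.1, 14.6 and 17.4 CPM in TGH. Its rise was 1.42 ± 0.14 in TGH (edgeR adjusted p = 1.4e-05), and TGL lay above NTG in every library with an edgeR adjusted p of 0.0511.

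A second family joins 7 genes, Gm14440, Zfp968, Zfp965, Gm14288, Zfp966, Zfp973 and Gm14327, and held more counts than the first. It summed to 57.0, 60.5, 57.2 and 49.5 CPM in NTG, 60.7, 64.2 and 78.7 in TGL and at 122, 126 and 125 CPM in TGH. TGL began just above the highest NTG library, and TGH was 2.22-fold above NTG.

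Within it the near-identical Gm14440 and Gm14288 lie apart on opposite strands of the chromosome. Gm14288 (ENSMUSG00000078889, 175789357 to 175801093, minus strand) stood at 12.02, 13.6, 12.7 and 11.4 CPM in NTG, 13.8, 13.6 and 18.2 in TGL and at 31.2, 27.4 and 27.5 CPM in TGH. Gm14440 (ENSMUSG00000078901, 175275125 to 175286805, plus strand) stood at 13.8, 15.2, 13.8 and 12.2 CPM in NTG, 13.1, 14.5 and 16.7 in TGL and at 25.1, 25.7 and 28.5 CPM in TGH. The log2 fold changes in TGH were 1.21 ± 0.12 and 0.94 ± 0.11, and with all words of each found elsewhere the counts of this pair are best read together. Gm14327, whose words are shared to 88.8%, stood at 5.61, 6.73, 4.89 and 4.23 CPM in NTG, 5.25, 5.71 and 6.68 in TGL and at 10.9, 13.6 and 13.5 CPM in TGH. Its TGL libraries lay within the NTG range, and TGH was 2.36-fold above NTG.

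The 4 genes of this family with an official zinc finger name behaved alike in direction. Zfp968 (11 fingers) stood at 7.35, 7.04, 6.21 and 6.40 CPM in NTG, 9.25, 7.61 and 9.44 in TGL and at 16.8, 18.3 and 17.5 CPM in TGH. Zfp966 (11 fingers) stood at 8.28, 7.24, 6.92 and 6.29 CPM in NTG, 6.49, 9.79 and 11.2 in TGL and at 14.7, 17.0 and 16.3 CPM in TGH. Zfp973 (6 fingers) stood at 6.81, 7.35, 8.72 and 6.74 CPM in NTG, 7.87, 10.1 and 11.2 in TGL and at 16.7, 18.2 and 16.3 CPM in TGH. In these 3 the TGH libraries lay clear of the rest, and the log2 fold changes were 1.38 ± 0.12, 1.16 ± 0.16 and 1.21 ± 0.14 with edgeR adjusted p of 4.69e-06, 0.000279 and 5.26e-05. Zfp965 (6 fingers) stood at 3.21, 3.42, 3.94 and 2.17 CPM in NTG, 4.97, 2.85 and 5.37 in TGL and at 6.43, 6.31 and 4.97 CPM in TGH. Its rise of 0.89 ± 0.25 passed the test (edgeR adjusted p = 0.0166) but lost the call without TGH 0 (edgeR adjusted p = 0.0516) or TGH 1 (0.0665).

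Gm14399 and Gm14326, at the proximal and distal part of the array, share about as many words with each other as not and have 18 and 15 fingers. Gm14326 (ENSMUSG00000078862, 177935993 to 177957297, minus strand) stood at 14.8, 19.7, 16.0 and 14.5 CPM in NTG, 23.9, 20.4 and 21.6 in TGL and at 42.8, 33.1 and 35.7 CPM in TGH. Every library of a higher group exceeded every library of a lower one, and the rise in TGH was 1.19 ± 0.13 (edgeR adjusted p = 3.24e-05). Gm14399 (ENSMUSG00000090093, 175129493 to 175142012, minus strand) stood at 9.22, 10.3, 10.6 and 9.60 CPM in NTG, 13.8, 14.0 and 16.0 in TGL and at 27.2, 20.1 and 24.3 CPM in TGH. It rose by 1.26 ± 0.12 in TGH (edgeR adjusted p = 1.54e-05) and by 0.55 ± 0.13 in TGL (edgeR adjusted p = 0.0276).

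The families of 2 genes that remain among the protein-coding members also rose in TGH. Gm14418 stood at 3.61, 3.31, 6.09 and 4.91 CPM in NTG, 7.45, 6.25 and 5.37 in TGL and at 9.71, 12.7 and 14.1 CPM in TGH. Its partner Gm14322, also with 8 fingers, stood at 4.01, 3.73, 3.46 and 2.51 CPM in NTG, 5.25, 4.21 and 5.23 in TGL and at 9.59, 12.1 and 12.3 CPM in TGH. Summed, this pair was 2.97-fold above NTG in TGH and 1.42-fold in TGL, with no overlap. Gm14295, the gene with the most fingers, stood at 8.28, 10.9, 8.72 and 9.94 CPM in NTG, 11.3, 9.24 and 13.1 in TGL and at 19.4, 20.3 and 22.0 CPM in TGH. Gm14419, with 17 fingers, stood at 5.07, 5.28, 4.42 and 6.63 CPM in NTG, 5.66, 8.02 and 6.83 in TGL and at 11.8, 11.9 and 15.0 CPM in TGH. In both genes TGL overlapped NTG and TGH overlapped neither, with rises in TGH of 1.12 ± 0.13 and 1.27 ± 0.17.

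The transcript 2210418O10Rik and Gm14296 had no zinc finger pattern in their longest reading frame, and all words of the former occur in the latter. Gm14296 stood at 6.68, 6.83, 6.80 and 5.26 CPM in NTG, 8.01, 8.84 and 10.5 in TGL and at 16.8, 15.3 and 13.4 CPM in TGH. 2210418O10Rik stood at 1.60, 1.14, 2.15 and 1.49 CPM in NTG, 3.45, 2.04 and 3.05 in TGL and at 4.09, 5.18 and 4.32 CPM in TGH. The first was separate in all groups and the second in TGH, and their rises in TGH were 1.24 ± 0.14 and 1.52 ± 0.25. Gm14444, the most proximal member, stood at 0.801, 0.621, 0.597 and 1.37 CPM in NTG, 0.828, 0.816 and 0.871 in TGL and at 1.75, 2.25 and 2.70 CPM in TGH. TGH was separate from both other groups, and the rise of 1.39 ± 0.31 (edgeR adjusted p = 0.00568) rests on 113 counts in all.

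Members with little shared sequence were also summed apart. The share is taken over annotated transcript sequence and not over reads, so their counts may still include reads of copies. Gm14391 and Gm4631 have exons of 7822 and 4402 bases, and 85.5% of the words of Gm6710 occur in Gm14391. For Gm4631, 39.3% of the words occur in Gm2026. Of the 32 protein-coding members 6 shared under 50% of their words: Gm14443, Gm14412, Gm14391, Gm4631, Gm14401 and Zfp970. They summed to 56.9 ± 6.42 CPM (SD, n = 4) in NTG, 62.3 ± 6.61 (SD, n = 3) in TGL and 98.6 ± 4.97 (SD, n = 3) in TGH, which was 1.73-fold higher in TGH. Most of that level was Zfp970, and the 5 genes without it summed to 14.8 ± 1.88, 22.0 ± 1.65 and 43.6 ± 2.94 CPM in the same groups, which was 2.94-fold higher in TGH. The 26 others were 2.46-fold higher in TGH, so whether the genes with little sharing rose less or more depends on Zfp970. Gm14412, Gm14391, Gm4631 and Zfp970 passed the test in TGH against NTG, as did Gm14443 and Gm14401, which were tested through their TGH libraries alone.

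Gm14412 (ENSMUSG00000078868, 177314520 to 177324307, minus strand, 15 fingers) had the largest log2 fold change of all tested members in both lines. It stood at 2.404, 3.83, 1.31 and 2.29 CPM in NTG, 5.11, 6.53 and 5.66 in TGL and at 9.47, 8.55 and 10.3 CPM in TGH. No groups overlapped. The change was 1.91 ± 0.25 in TGH (edgeR adjusted p = 0.000148) and 1.21 ± 0.27 in TGL (edgeR adjusted p = 0.0216), and TGH against TGL did not pass the test (0.70 ± 0.25, edgeR adjusted p = 0.106). Gm14443 (ENSMUSG00000078902, 175166255 to 175175871, minus strand, 16 fingers), with the least shared sequence, stood at 1.07, 0.931, 0.836 and 0.343 CPM in NTG, 0.690, 0.952 and 1.45 in TGL and at 1.64, 2.07 and 1.94 CPM in TGH. These are 105 counts in all; TGH lay above the rest, the change was 1.25 ± 0.35 (edgeR adjusted p = 0.017), and the call was lost without TGH 1 (edgeR adjusted p = 0.0713). Gm14401 (5 fingers) stood at 0.668, 1.03, 1.43 and 0.914 CPM in NTG, 0.966, 0.816 and 1.45 in TGL and at 2.34, 3.63 and 2.37 CPM in TGH, a change of 1.45 ± 0.30 (edgeR adjusted p = 0.00378).

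Zfp970 (ENSMUSG00000078866, 177464733 to 177478129, plus strand, 14 fingers) was the exception in size. It stood at 46.2, 46.4, 38.0 and 37.6 CPM in NTG, 34.6, 38.7 and 47.3 in TGL and at 58.8, 60.1 and 45.9 CPM in TGH. TGH 2 lay inside the NTG range, so the groups overlapped. The change of 0.39 ± 0.13 was called (edgeR adjusted p = 0.0434), but not without NTG 0 (edgeR adjusted p = 0.0503), NTG 2 (0.0869), NTG 3 (0.0990), TGH 0 (0.127) or TGH 1 (0.166). Per kilobase of transcript Zfp970 stood at 20.9 CPM over all libraries, against 8.47 for Gm14326, the next protein-coding member, and 6.06 for Gm14399. Without Zfp970 the summed level of the members was 1.99-fold higher in TGH than in NTG.

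**Figure D3:**
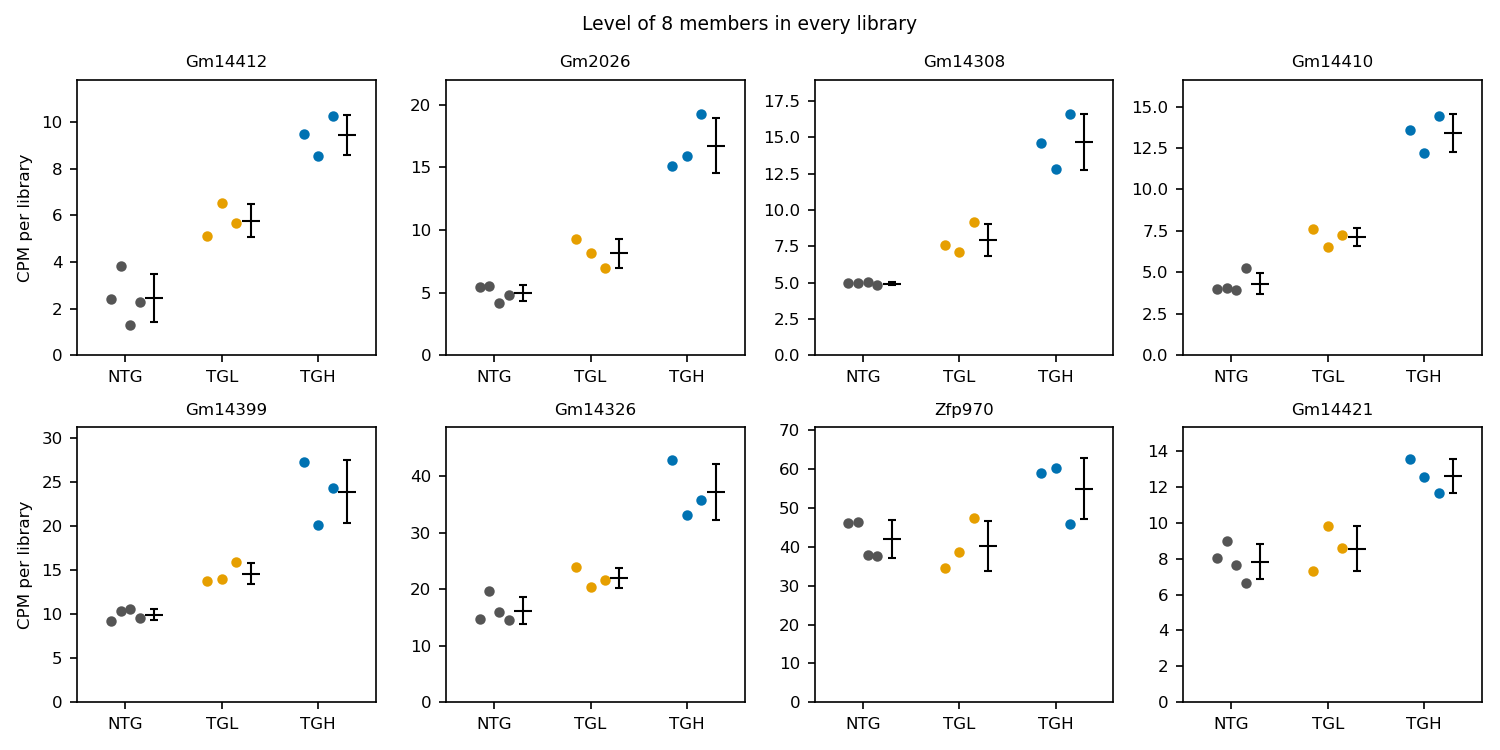
CPM per library (vertical axes, starting at 0) of 8 members in NTG, TGL and TGH; points are libraries, and bars show the mean and SD. Gm14412, Gm2026, Gm14308, Gm14410, Gm14399 and Gm14326 step up from NTG to TGL to TGH without overlap, whereas in Zfp970 and the unprocessed pseudogene Gm14421 the TGL libraries overlap those of NTG.

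**Figure D4:**
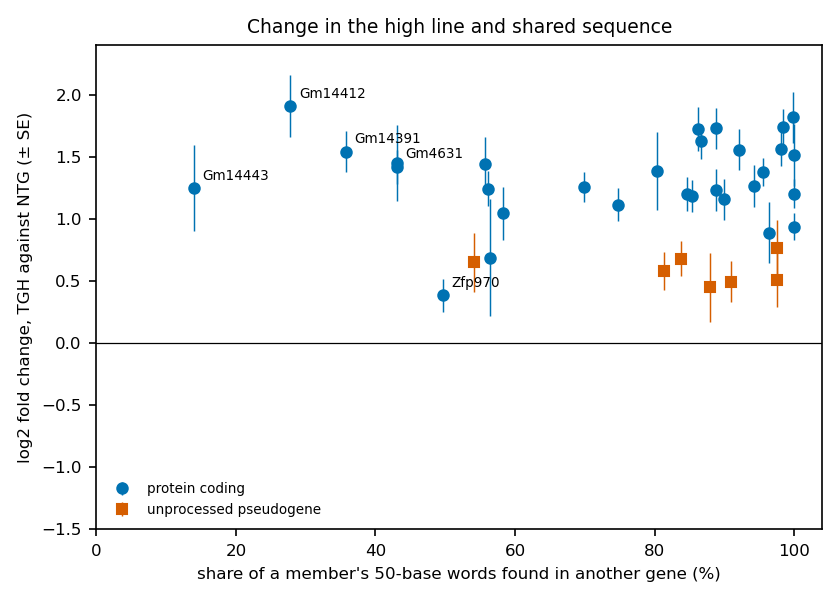
Percentage of the 50-base words of a member found in another gene (horizontal axis) against its log2 fold change in TGH against NTG with its SE (vertical axis), for the 37 tested members other than processed pseudogenes, by kind of gene. Rises above 1 stand at the low end (Gm14412 at 27.8%) as well as at 100%; Gm14443, at 14.0%, was tested through its TGH libraries alone.

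Of the protein-coding members left, Gm14393 (3 fingers) stood at 1.74, 1.55, 1.43 and 1.26 CPM in NTG, 2.48, 1.77 and 2.03 in TGL and at 3.16, 3.11 and 3.02 CPM in TGH. Its groups were separate, but TGL only narrowly from NTG, since NTG 0 and TGL 1 each held 13 counts. TGL against NTG did not pass the test (edgeR adjusted p = 0.316). The change in TGH was 1.05 ± 0.21 (edgeR adjusted p = 0.00323). The 1 tested protein-coding member without a call in TGH was Gm14409, named here after its values were seen. It stood at 0.401, 2.07, 0.358 and 1.14 CPM in NTG, 0.828, 1.09 and 1.31 in TGL and at 1.52, 1.47 and 2.05 CPM in TGH, with a change of 0.69 ± 0.47 (edgeR adjusted p = 0.282).

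The unprocessed pseudogenes, remnants of the same duplications, had smaller changes. The family of Gm14387, Gm1980, Gm14405, Gm14421 and Gm14416 summed to 30.9, 41.8, 33.8 and 29.0 CPM in NTG, 27.5, 34.5 and 36.9 in TGL and at 52.0, 52.6 and 49.98 CPM in TGH. TGL lay within the range of NTG or just under it, and TGH was 1.52-fold above NTG. Gm14421 stood at 8.01, 9.004, 7.64 and 6.63 CPM in NTG, 7.32, 9.79 and 8.57 in TGL and at 13.6, 12.5 and 11.7 CPM in TGH, a change in TGH of 0.68 ± 0.14 (edgeR adjusted p = 0.0032). Gm14387 stood at 7.21, 10.7, 9.07 and 6.86 CPM in NTG, 7.18, 7.88 and 8.28 in TGL and at 12.6, 13.5 and 11.9 CPM in TGH, a change of 0.58 ± 0.15 (edgeR adjusted p = 0.0135). In both genes TGH was separate from NTG and TGL was not.

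Gm1980 stood at 3.74, 5.59, 2.75 and 5.14 CPM in NTG, 3.73, 4.89 and 5.95 in TGL and at 7.25, 7.26 and 7.66 CPM in TGH, a change of 0.77 ± 0.23 (edgeR adjusted p = 0.0237). Gm14416 stood at 7.08, 9.42, 7.999 and 6.06 CPM in NTG, 6.21, 6.80 and 8.42 in TGL and at 10.4, 11.9 and 10.04 CPM in TGH, a change of 0.50 ± 0.16 (edgeR adjusted p = 0.0369). These calls were the least firm among the pseudogenes, although TGH did not overlap NTG in either. Without TGH 1 the edgeR adjusted p was 0.0629 for Gm14387, 0.0659 for Gm1980 and 0.1501 for Gm14416. Without NTG 0 it was 0.0608 for Gm1980 and 0.0860 for Gm14416, and without TGH 0 it was 0.0511 and 0.0651. Gm1980 also lost the call without TGH 2 (0.0579), and Gm14416 without NTG 2 (0.0501) or NTG 3 (0.0867) and with DESeq2 (0.0565). The tested unprocessed pseudogenes without a call, named after their values were seen, were Gm14405 (0.51 ± 0.22, edgeR adjusted p = 0.0904), Gm14400 (0.65 ± 0.24, edgeR adjusted p = 0.0539) and Gm16363 (0.45 ± 0.28, edgeR adjusted p = 0.234).

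Among the processed pseudogenes between these genes were Gm14439 and Gm14407, named after their values were seen. Gm14439 stood at 0.935, 1.86, 1.43 and 1.03 CPM in NTG, 1.52, 0.952 and 1.74 in TGL and at 1.87, 1.21 and 1.295 CPM in TGH, a change in TGH of 0.11 ± 0.33 (edgeR adjusted p = 0.815). Gm14407 stood at 1.20, 2.17, 0.358 and 1.71 CPM in NTG, 0.966, 1.77 and 1.31 in TGL and at 1.29, 1.55 and 1.08 CPM in TGH, a change of -0.07 ± 0.44 (edgeR adjusted p = 0.917). In both all 3 groups overlapped, at levels near 1 CPM where the standard errors are wide.

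In the low line the same direction was seen for fewer members. Of the 43 tested members 5 were higher and 0 lower in TGL than in NTG (edgeR quasi-likelihood F test, adjusted p under 0.05), against 4.15% and 2.15% of all genes tested, and their median log2 fold change was 0.29. These 5 were Gm14399, Gm2026, Gm14308, Gm14410 and Gm14412, all protein coding. In 15 of the 43 tested members every TGL library lay above every NTG library, which held for 10.8% of all genes tested. The calls were close to the threshold, and their number was 2 without NTG 0, 3 without NTG 1 or NTG 3, 1 without TGL 0 and 2 without TGL 1. Gm2026 lost its call without TGL 0, TGL 1 or NTG 3 (edgeR adjusted p = 0.127, 0.0848 and 0.0515), and Gm14412 without TGL 1 or NTG 0 (0.0987 and 0.0587). Gm14410 lost its call without TGL 0, NTG 0 or NTG 1 (edgeR adjusted p = 0.0808, 0.0514 and 0.0548), and Gm14308 without TGL 0, TGL 2 or NTG 1 (0.0537, 0.0512 and 0.0506). Gm14399 lost its call without NTG 0, NTG 1, NTG 3 or any single TGL library (edgeR adjusted p = 0.0562 to 0.0796). The unprocessed pseudogenes had a median log2 fold change of -0.02 in TGL, with 0 of 7 called by edgeR or DESeq2 and 0 at an unadjusted p under 0.05, and the protein-coding members a median of 0.45.

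The lines were also compared directly. In TGH against TGL 25 of the 43 tested members were higher and 0 lower (edgeR quasi-likelihood F test, adjusted p under 0.05), against 5.52% and 4.1% of all genes tested, and their median log2 fold change was 0.81. They were 23 protein-coding genes and the unprocessed pseudogenes Gm14387 and Gm14421. In 33 of the 43 tested members every TGH library exceeded every TGL library, which held for 14.5% of all genes tested. Among the 33 are Gm14444, Gm14443, Gm14401 and Gm14409, which passed the low-count filter through their TGH libraries alone. The filter favoured such a separation in them. The largest called difference among members that passed the low-count filter without their TGH libraries was 1.31 ± 0.18 in Gm14391 (edgeR adjusted p = 0.000869). Gm14444 and Gm14401, which passed it through their TGH libraries alone, had differences of 1.40 ± 0.35 and 1.38 ± 0.34 (edgeR adjusted p = 0.0276 and 0.0253). Both lost that call without TGL 0 (edgeR adjusted p = 0.0856 and 0.0881), TGL 1 (0.0957 and 0.110) or TGH 1 (0.0846 and 0.120), and Gm14444 also without TGL 2 (0.0738) or TGH 2 (0.0861). Gm14387 lost it without TGL 0, TGL 1 or TGH 1 (edgeR adjusted p = 0.0819, 0.0731 and 0.0904), Gm14418 without TGL 1, TGL 2, TGH 1 or TGH 2 (0.0829, 0.0791, 0.0840 and 0.0781) and Zfp966 without TGH 1 (0.0621). Gm14421 lost it without any single library (edgeR adjusted p = 0.0501 to 0.1386). The mean level was ordered NTG, TGL, TGH from low to high in 32 of the 43 tested members, which held for 27.3% of all genes tested. Gm14443, Gm14401 and Gm14409 are among these 32.

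With both lines joined, the comparison that the study itself deposited, 21 of the 43 tested members were higher and 0 lower in TG than in NTG (edgeR quasi-likelihood F test, adjusted p under 0.05), against 9.34% and 8.03% of all 14265 genes tested. All 21 were protein coding, and the median log2 fold change was 0.83. The number called fell to 9 without NTG 0 or NTG 1, to 13 without NTG 2 or NTG 3 and to 11 without TGH 0 or TGH 1. Every TG library lay above every NTG library in 15 of the tested members, which held for 7.68% of all genes tested. By the adjusted p of the authors' deposited table, under 0.05 in both directions, 23 of the 47 members were higher and 0 lower, against 9.32% and 7.64% of the 17099 genes with an adjusted p in that table. With all libraries numbered 2 left out, the edgeR test called 16 members higher. This comparison shares its control libraries with the comparisons of the single lines. For Gm2026 the values side by side were 1.33 ± 0.29 in TG, 0.70 ± 0.16 in TGL and 1.74 ± 0.15 in TGH, and for Gm14440 they were 0.59 ± 0.22 (edgeR adjusted p = 0.0807), 0.10 ± 0.12 and 0.94 ± 0.11.

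Zinc finger genes next to the window on its distal side moved in the same direction. They share sequence with members: for example, 36.3% of the words of Gm14327 occur in Zfp971 and 11.4% of those of Gm14322 in Zfp931. The part of shared reads in their values was not tested. Zfp971 (178023284 to 178034022) stood at 17.7 ± 2.13 CPM (SD, n = 4) in NTG, 25.2 ± 2.88 (SD, n = 3) in TGL and 37.1 ± 4.34 (SD, n = 3) in TGH. It rose by 1.06 ± 0.12 in TGH (edgeR adjusted p = 5.28e-05) and by 0.51 ± 0.13 in TGL (edgeR adjusted p = 0.0352). Zfp931 (178067695 to 178078476) stood at 8.18 ± 1.04, 11.3 ± 1.89 and 18.3 ± 2.19 CPM and rose by 1.16 ± 0.14 in TGH (edgeR adjusted p = 0.000102). On the proximal side the nearest tested genes were Prelid3b, a gene of lipid transport in mitochondria, which rose by 0.48 ± 0.10 in TGH (edgeR adjusted p = 0.00338), and Edn3, which encodes endothelin 3 and did not pass the test (0.62 ± 0.47, edgeR adjusted p = 0.336). Over 3 megabases on either side, 5 of 27 tested genes before the window were higher and 3 lower in TGH, and 6 of 26 after it were higher and 2 lower. The 6 include Zfp971 and Zfp931. Over all genes tested 16.0% were higher and 16.4% lower in TGH than in NTG, so the flank counts lay near these shares.

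Other zinc finger genes gave the background for these counts. Of 296 tested genes with a Zfp number that were no members, 23 were higher and 21 lower in TGH than in NTG. Their median log2 fold change was -0.01, and the 23 include the neighbours Zfp971 and Zfp931. Among all genes tested, 16.0% were higher and 16.4% lower. In windows of other multi-copy zinc finger arrays, 3 of 25 tested genes on chromosome 4 were higher and 4 lower (median 0.00), and 3 of 22 on chromosome 13 were higher (median 0.07). In TGL against NTG, 4 of 296 tested Zfp-numbered genes were higher and 5 lower, against 4.15% and 2.15% of all genes tested. In the window on chromosome 4, 3 of 25 were higher and 1 lower in TGL, and on chromosome 13 0 of 22 were called.

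Cofactors with which KRAB zinc finger proteins work were looked at as well. Of 27 tested genes from a list of 29 cofactors and heterochromatin proteins, 2 were higher and 2 lower in TGH than in NTG. Over all genes tested the shares were 16.0% higher and 16.4% lower. Cbx5, which encodes heterochromatin protein HP1 alpha, rose by 0.27 ± 0.07 (edgeR adjusted p = 0.0117), and the histone methyltransferase gene Ehmt1 rose by 0.41 ± 0.11 (edgeR adjusted p = 0.0161). The chromatin remodellers Chd3 and Chd4 fell by 0.47 ± 0.11 (edgeR adjusted p = 0.00732) and 0.30 ± 0.09 (edgeR adjusted p = 0.0276). Trim28 stood at 52.6 ± 2.53 CPM (SD, n = 4) in NTG and 46.7 ± 6.63 (SD, n = 3) in TGH and did not pass the test (-0.17 ± 0.10, edgeR adjusted p = 0.221), nor did Setdb1 (-0.17 ± 0.13, edgeR adjusted p = 0.327).

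Several lists of cell type markers moved with the groups as well. In the lymphocyte, adipocyte, red cell and neuron and glia lists (1, 1, 3 and 2 genes tested) no gene was called in TGH against NTG. Atrial markers summed to 40.5 to 84.4 CPM in NTG, 306 to 937 in TGL and 353 to 422 in TGH, and the 2 of 4 that were tested, Nppa and Myl4, were higher in both lines (log2 fold changes 3.16 ± 0.36 and 3.27 ± 0.38 in TGL, edgeR adjusted p = 0.000336 and 0.000349, and 2.595 ± 0.36 and 4.07 ± 0.37 in TGH, edgeR adjusted p = 0.00023 and 8.46e-06). Cardiomyocyte markers summed to 67081 to 72834 CPM in NTG, 66221 to 66614 in TGL and 53405 to 58971 in TGH, with 1 of 7 higher and 5 lower in TGH. Fibroblast markers summed to 919 to 1191, 1201 to 1616 and 1477 to 1595 CPM, with 4 of 5 higher in TGH, and macrophage markers to 129 to 168, 136 to 173 and 191 to 221 CPM, with 3 of 5 higher. Endothelial markers summed to 745 to 783, 601 to 803 and 533 to 642 CPM, with 3 of 5 lower in TGH. Smooth muscle and pericyte markers summed to 1070 to 1144, 907 to 1082 and 597 to 751 CPM, with 2 of 4 lower. Over all genes tested 16.0% were higher and 16.4% lower in TGH than in NTG. None of the genes of the lists given with sums was at 0 in all libraries. The part of these shifts in the values of the zinc finger array was not tested.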

How the data were processed

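Left ventricular RNA had been extracted with Trizol and made into Illumina TruSeq libraries, per the labels' protocols. Per the submitters' processing notes, bcl2fastq 1.8.4, Trim Galore 0.4.0, Novoalign, SAMtools and DESeq2 1.18.1 were used with mm10 (GRCm38). Which counter, annotation and strand were used, and what was done with reads that match several copies, is not given in the sources used here. Raw counts per gene and library, as whole numbers, were deposited by the authors. For TG against NTG, per the file headers, the table adds the authors' signal (baseMean, a mean normalized count), their log2 fold change and its error, their score (the Wald statistic) and their p-value, raw and adjusted.

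Differences were tested on the counts with the quasi-likelihood F test of edgeR 4.0.16 (R 4.3.3) after filterByExpr and TMM scaling, whose factors ran from 0.940 to 1.08. Benjamini-Hochberg adjustment covered every gene tested, with a threshold of 0.05, and the code was tested on simulated data. Both lines joined were fitted against NTG as 2 groups, while all else came from a single fit of 3 groups; the biological coefficient of variation was 17.1% and 13.9%. The SE of a log2 fold change is its size over the square root of F. Sums of members, families and counts of separate groups carry no test. Transcripts were those of GENCODE M21, in which all 47 members had the table's coordinates, and promoters those of RefSeq. Alignments used Biopython 1.88.

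The members, the lists and the alternatives were chosen with earlier results of these data known. Every member called in any comparison and the 6 members with the highest mean CPM were named with all library values, except for results on some processed pseudogenes, which are not reported here; other members are named after their values were seen, as stated. Same-numbered libraries of different groups did not deviate together throughout (r over 0.1 in 2 of 9 pairs, 0.165 for TGL 0 with TGH 0 and 0.353 for TGL 2 with TGH 2), so no pairing was used. Alternatives were DESeq2 1.42.0, RLE factors, no scaling factors, other filters, thresholds and minimum totals, a replicate block, other groups in the fit and leaving out each library or all libraries numbered 2.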

Additional observations from a re-analysis of the deposited data

Results flagged for a closer look

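In 3 of the 41 members other than processed pseudogenes 1 of the 4 NTG libraries stood apart from the other 3 by Dixon's ratio (its gap to the nearest library over the whole range) beyond the critical value for groups of 4, where chance gives about 1 in 20 groups. The ratio was 0.942 for Gm6710, where NTG 2 stood at 5.01 CPM above values of 4.23 to 4.27. It was 0.927 for Gm14410, where NTG 3 was high (5.26 CPM), and 0.903 for Gm14296, where NTG 3 was low (5.26 CPM). The TGH libraries of all 3 lay above these values.

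The change against NTG differed between the lines in 25 members, by the direct edgeR test of TGH against TGL (adjusted p under 0.05), with TGH higher in each.

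Among the rows left out by the minimum total, Gm14408 had 10 counts in the transgenic libraries, 2 in TGL and 8 in TGH, and 0 in NTG, which allows up to 3 counts.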

How the results depend on the processing

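The counts of called members in TGH against NTG (33) and TGH against TGL (25) stayed within 1.5 times under every alternative run. Leaving out 1 library gave 27 to 34 and 19 to 24 calls. In TG against NTG (21 calls) an adjusted p of 0.01 gave 3, and leaving out 1 library gave 9 to 25. In TGL against NTG (5 calls) an adjusted p of 0.01 gave 0 and one of 0.1 gave 10, no scaling factors, tried after seeing the data, gave 10, and leaving out 1 library gave 1 to 6. Without scaling factors the median log2 fold change of all tested genes moved by 0.16 in TGH and 0.08 in TGL against NTG. The replicate number as a replicate block gave 3 calls in TG against NTG, 2 in TGL against NTG, 29 in TGH against NTG and 25 in TGH against TGL; the libraries share only a number. The 1.90-fold higher sum of the members in TGH was 2.11-fold by total counts, 1.99-fold without Zfp970 and 1.86-fold to 1.95-fold with 1 library left out. For single values, only the members called in a comparison were followed through the alternatives. In TGH against NTG 471 of 495 such values kept direction and side of the threshold, and in TGH against TGL 320 of 350. The numbers were 287 of 378 in TG against NTG and 53 of 75 in TGL against NTG. The cause was not tested. Members with about 100 counts in all have standard errors of 0.3 to 0.5 on the log2 scale, and those with 75 counts or fewer were not tested.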
